A study of Mus musculus with 16 samples.

Results

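The genes of adenosine receptors and adenosine metabolism were followed in the mouse somatosensory cortex through sleep deprivation (SD) and through loss of AcPb, the neuron-specific isoform of the interleukin-1 receptor accessory protein. The 10 genes were chosen by name out of 24421 genes in the deposited tables, with earlier results of these data known. All 10 had reads in every library. They comprise the receptors Adora1, Adora2a and Adora2b, the adenosine-removing enzymes Adk and Ada, the ectonucleotidases Nt5e, Entpd1 and Entpd2, and the equilibrative nucleoside transporters Slc29a1 and Slc29a2. Male C57BL/6 mice (WT, the C57BL/6J substrain in the study's methods) and male AcPb-/- mice (AcPbKO), bred as homozygotes and aged 2 to 3 months, were either left undisturbed (CTL) or kept awake by gentle handling for 8 h from ZT20, and cortex was collected at ZT4 in every group. The groups were thus CTL-WT, SD-WT, CTL-AcPbKO and SD-AcPbKO, with 3 libraries each. The labels name no tissue-restricted driver for the AcPb deletion and do not describe the genotypes as littermates.

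Extracellular adenosine arises when ATP released by neurons and glia is cut stepwise, by the ecto-ATPase encoded by Entpd2, the ATP and ADP hydrolase encoded by Entpd1 and the 5'-nucleotidase encoded by Nt5e. It is taken up through equilibrative transporters and then phosphorylated to AMP by adenosine kinase (Adk), which in the adult brain is mainly an astrocyte enzyme, or deaminated to inosine by adenosine deaminase (Ada). Adenosine accumulates in the brain during waking and promotes sleep: the receptor encoded by Adora1 couples to inhibitory G proteins and dampens neuronal activity, whereas those encoded by Adora2a and Adora2b couple to stimulatory G proteins, Adora2a being most abundant in striatal projection neurons and Adora2b having a low affinity for adenosine.

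Values are normalised read counts, that is reads on a gene divided by a library scaling factor set jointly over the 12 libraries. Control libraries held 26504840 to 41615582 reads on genes and SD libraries 58770286 to 71857505, so depth and SD cannot be told apart. Thinning the reads evens out the number of reads, but not any other difference between SD and control libraries. Xist, the RNA of the inactive X chromosome, had over 1000 reads and Uty, Kdm5d, Eif2s3y and Ddx3y of the Y chromosome summed to 0 to 2 reads in 4 libraries, CTL-WT 2 and 3 and CTL-AcPbKO 4 and 5, which goes against their label as male; no SD library was of this kind. The SD effects are therefore also given from a fit of all groups without these 4 libraries, which leaves 1 control library per genotype whose spread is taken from the other groups. Il1rap, the gene that holds the AcPb isoform, had 1497 ± 21.9 normalised counts in CTL-WT and 1584 ± 66.1 in CTL-AcPbKO (mean ± standard deviation, n = 3), and a gene count cannot check the loss of an isoform. Markers of cortical excitatory neurons were high throughout, Slc17a7 ranging from 50183 to 75887 normalised counts. SD-AcPbKO 4 stood apart in holding 16186 normalised counts of the choroid plexus gene Ttr against 10.6 to 283 in the other 11 libraries. Nothing in the labels says whether libraries of a group came from separate animals, so p-values measure the spread between libraries.

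Levels between genes were compared as normalised counts per kb of the longest annotated transcript. Adora1 was the most abundant of the 10 in every group, with a median of 2495 per kb in CTL-WT (range 2440 to 2754), and Adk came second with 546 per kb (541 to 549). Slc29a1 (362 per kb, 305 to 367), Slc29a2 (259 per kb, 245 to 263) and Entpd2 (208.5 per kb, 197 to 251) followed. Slc29a1 and Slc29a2 did not overlap in CTL-WT, whereas Slc29a2 and Entpd2 did. Adora2a had a median of 188 per kb but a range of 38.3 to 314 in CTL-WT, which took in the ranges of Entpd2 and Entpd1 (168 per kb, 166 to 199). Nt5e (70.5 per kb, 70.2 to 71.6) and Adora2b (65.7 per kb, 64.5 to 81.2) overlapped, and Ada was lowest with 14.6 per kb (10.9 to 17.3), below every other gene in every group. When lengths were taken as the union of all exons, Slc29a2 moved ahead of Slc29a1 and, in both SD groups, ahead of Adk, so the order of these 3 genes depends on the transcript assumed.

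**Figure D1:**
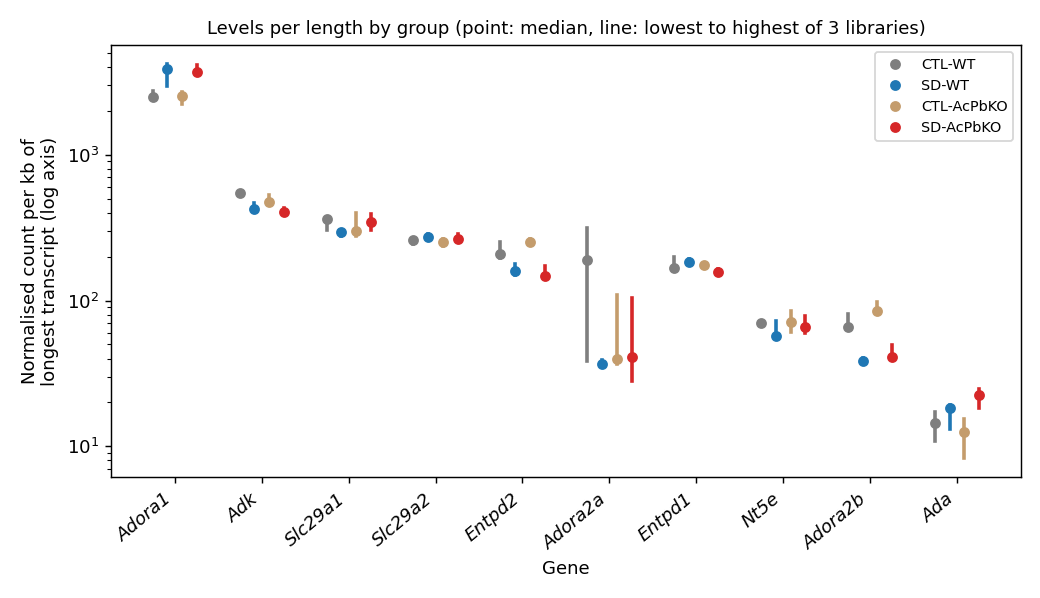
Normalised counts per kb of the longest transcript (vertical log axis) for the 10 genes (horizontal axis, ordered by their CTL-WT median) in the 4 groups; points are medians and lines run from the lowest to the highest of 3 libraries. Adora1 lies above and Ada below the other genes in every group, and Adora2a runs from 38.3 to 314 per kb in CTL-WT.

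The first comparison asked which of these genes changed with SD in wild-type mice. Adora1 was upregulated, and Adora2a, Adora2b, Adk and Entpd2 were downregulated (limma on log2 values, adjusted p-value under 0.05). These 5 of 10 stand against 25.4% of 20417 genes tested; 1 of 10 was higher (13.2% of all genes) and 4 of 10 were lower (12.2% of all genes). CTL-WT and SD-WT values did not overlap for 6 of the 10 genes, namely Adora1, Adora2b, Adk, Entpd2, Slc29a1 and Slc29a2, against 40.2% of all genes. The median log2 fold change over the 10 genes was -0.23, and over all genes tested it was 0.00 after rounding (-0.0034).

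In AcPb-/- mice the same comparison gave 4 of 10 genes, Adora1 upregulated and Adora2b, Adk and Entpd2 downregulated, against 27.4% of 20574 genes tested. In this genotype 1 of 10 was higher (13.9% of all genes) and 3 of 10 were lower (13.5% of all genes), with a median log2 fold change of -0.10 over the 10 genes and 0.01 over all genes. Groups did not overlap for Adora1, Adora2b, Adk, Ada, Entpd1 and Entpd2, 6 of 10 against 42.4% of all genes. Each genotype has its own control and SD libraries. Leaving out the 4 libraries with Xist reads reduced the calls to 0 of 10 in wild-type mice and to Adora2b and Entpd2 in AcPb-/- mice, with 680 and 2080 genes called in all. A further fit left out the 4 libraries with at least 10 normalised counts of Six3 (the libraries with Six3, described with Adora2a). The controls left were CTL-WT 3, the single wild-type control, and CTL-AcPbKO 4 and 5. All of these are libraries with Xist reads and no SD library is, so SD and Xist status cannot be told apart there. In that fit the wild-type log2 fold changes were 0.40 for Adora1, -1.06 for Adora2b, -0.33 for Adk and -0.36 for Entpd2. In AcPb-/- mice they were 0.68, -1.15, -0.27 and -0.69. With all libraries kept and Xist status entered as a term, Adora1 and Adora2b were called in both genotypes, Adora2a, Adk and Slc29a1 in wild-type mice, and Entpd2 in AcPb-/- mice. That fit called 4057 and 5189 of 20978 genes in all. Thinning every library to 26504840 reads gave the same 5 genes in wild-type mice, and in AcPb-/- mice the same 4 plus Ada. After thinning, 4419 of 19953 and 5092 of 20109 genes were called in all.

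**Figure D2:**
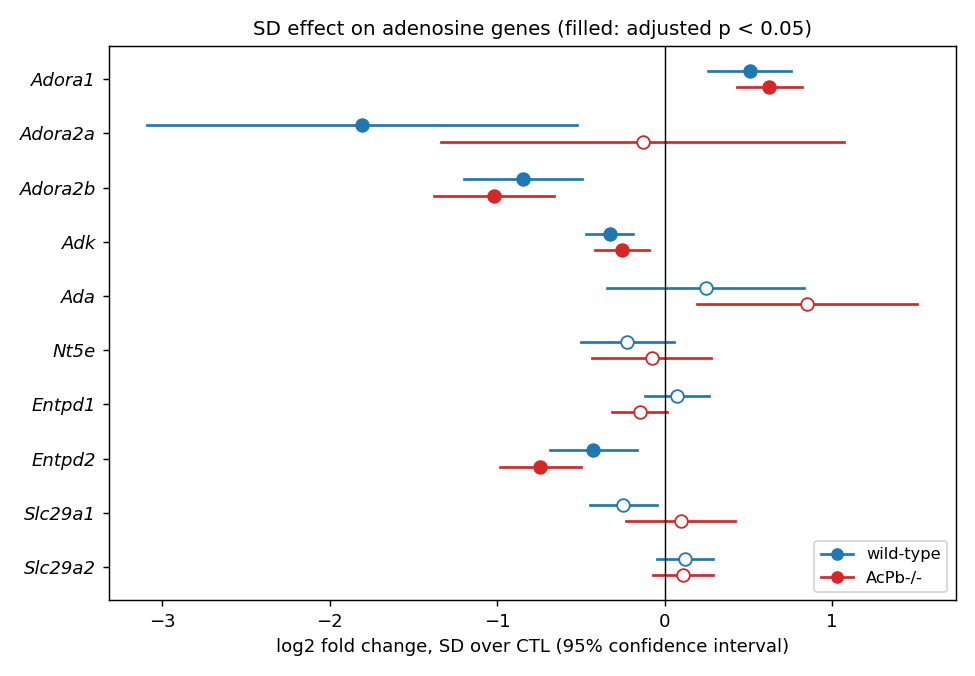
Log2 fold change of SD over CTL (horizontal axis) with its 95% confidence interval for each of the 10 genes (vertical axis), in wild-type (blue) and AcPb-/- mice (red); filled points passed an adjusted p-value of 0.05. Adora1 lies right of 0 and Adora2b, Adk and Entpd2 left of 0 in both genotypes, and the Adora2a interval in wild-type mice runs from -3.09 to -0.52.

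Adora1 (chr1:134199223-134235431, minus strand, GRCm38) encodes the inhibitory receptor through which adenosine is best known to quiet cortical neurons. Normalised counts in CTL-WT were 12124, 12396 and 13681 (replicates 1, 2 and 3), and in SD-WT 19297, 20717 and 14821 (replicates 1, 2 and 4). The lowest SD-WT library lay above the highest control, and the other two SD-WT libraries lay far above it. The log2 fold change was 0.51 (SE 0.11, 95% confidence interval 0.26 to 0.76, limma adjusted p = 0.00887), a 1.42-fold rise. In CTL-AcPbKO the values were 12510, 11060.3 and 13289 (replicates 3, 4 and 5), and in SD-AcPbKO 20515, 18379 and 17866 (replicates 2, 3 and 4). All 3 SD-AcPbKO libraries were above all controls, with a log2 fold change of 0.62 (SE 0.08, 0.43 to 0.82, limma adjusted p = 0.0016). When libraries with Xist reads were left out, the log2 fold change was 0.58 in wild-type mice (limma adjusted p = 0.134) and 0.59 in AcPb-/- mice (limma adjusted p = 0.102), so the size was kept and the call was lost. Exons of Adora1 overlap those of Mybph on the other strand. The library kit keeps strand, but the sources used here do not give the strand setting of the counting.

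Adora2b (chr11:62248984-62266453, plus strand) encodes the low-affinity stimulatory receptor. In CTL-WT it had 119.0, 121 and 149.8 normalised counts, and in SD-WT 71.4, 74.7 and 68.1. The highest SD-WT library was well below the lowest control, and the 3 SD-WT libraries were closer to each other than the controls were. The log2 fold change was -0.85 (SE 0.16, -1.20 to -0.50, limma adjusted p = 0.00435), or 0.556 of the control level. CTL-AcPbKO libraries held 155, 155 and 181 normalised counts, against 75.9, 74.6 and 90.8 in SD-AcPbKO, a log2 fold change of -1.02 (SE 0.16, -1.38 to -0.66, limma adjusted p = 0.00257). Again no SD library reached a control library. Raw reads on Adora2b were 86 to 134 in the 6 controls and 90 to 128 in the 6 SD libraries, so the difference between groups appears only after scaling for depth. Leaving out the libraries with Xist reads gave log2 fold changes of -0.73 (limma adjusted p = 0.0748) and -0.95 (limma adjusted p = 0.0318). Thinned to equal depth they were -0.89 and -1.08, both called.

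Adora2a (chr10:75316877-75334784, plus strand) encodes the stimulatory receptor of striatal projection neurons and of some other cells. Library by library, CTL-WT had 814 normalised counts in replicate 1, 489 in replicate 2 and 99.5 in replicate 3. The SD-WT libraries had 95.7, 101.2 and 94.05. In CTL-AcPbKO the counts were 284 in replicate 3, 102 in replicate 4 and 94.8 in replicate 5. In SD-AcPbKO they were 72.8 in replicate 2, 107 in replicate 3 and 271 in replicate 4. In all, 8 of the 12 libraries lay between 72.8 and 107 normalised counts, whatever their group, and 4 libraries stood higher: CTL-WT 1, CTL-WT 2, CTL-AcPbKO 3 and SD-AcPbKO 4. In wild-type mice the log2 fold change was -1.81 (SE 0.58, -3.09 to -0.52, limma adjusted p = 0.0436), although CTL-WT 3 lay among the SD-WT libraries and the groups overlapped. In AcPb-/- mice it was -0.13 (SE 0.53, -1.33 to 1.07, limma adjusted p = 0.875). Without the libraries with Xist reads it was -1.14, but CTL-AcPbKO 3, at 284, was then the single AcPb-/- control. With Xist status as a term it was -1.26 (limma adjusted p = 0.165), and CTL-AcPbKO 3 was the only AcPb-/- control without Xist reads.

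The same 4 libraries were the only ones of the 12 with at least 10 normalised counts of Six3, a transcription factor of striatal projection neurons: 63.3 in CTL-WT 1, 57.75 in CTL-WT 2, 18.3 in CTL-AcPbKO 3 and 50.4 in SD-AcPbKO 4. The other 8 libraries had 0 to 8.09. Drd2, the dopamine receptor of the striatal neurons that carry Adora2a, had 301, 122.5, 104 and 239.8 normalised counts in these 4 libraries and 21.2 to 60.0 in the others. Isl1, a transcription factor of the striatum, had 19.0, 14.1, 5.22 and 16.3 there and 0 to 2.70 in the others, with no read in 6 libraries. Of the 14 striatal markers examined, 12 were detected in every library, the exceptions being Six3 and Isl1. The summed level of all 14 ran from 20588 to 34935 normalised counts and did not set the 4 libraries apart. It was 34935 in CTL-WT 1, 26742 in CTL-WT 2, 25323 in CTL-AcPbKO 3 and 29659 in SD-AcPbKO 4. The other 8 libraries had 20588 to 27242, the highest being SD-AcPbKO 3. SD was called for 3 of the 14 in wild-type mice, all lower (Drd1, Gpr6 and Scn4b), against 12.2% of all genes lower and 25.4% called in all. In AcPb-/- mice limma called 0 of 14 (3 at an unadjusted p under 0.05), against 27.4% of all genes.

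Without the 4 libraries with Six3, a choice made after seeing the data, the Adora2a log2 fold change with SD was -0.04 in wild-type mice and -0.16 in AcPb-/- mice. Because the 4 libraries left out are those with the highest Adora2a, values near 0 follow from that choice and test nothing. Of the single libraries of the wild-type comparison, only leaving out CTL-WT 3 kept the call; without CTL-WT 1 the adjusted p in limma was 0.1355, without CTL-WT 2 it was 0.153, and without SD-WT 1, 2 or 4 it was 0.114, 0.110 and 0.08125. The call was also lost with a pseudocount of 0.1 (limma adjusted p = 0.0505) or 10 (0.0667) and when all groups shared a fit (0.0673). DESeq2 (log2 fold change -2.27, adjusted p = 0.0134) and edgeR (-2.26, 0.00387) kept it. So did limma with TMM scaling (adjusted p = 0.0437), the deposited scale (0.0428) or a mean of at least 10 (0.0397). Of 20 alternatives, 8 kept the call and 12 lost it. Without the libraries with Xist reads, which left CTL-WT 1 as the single wild-type control, the log2 fold change was -3.06 (limma adjusted p = 0.0649), and with Xist status as a term it was -2.94 (0.0075).

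**Figure D3:**
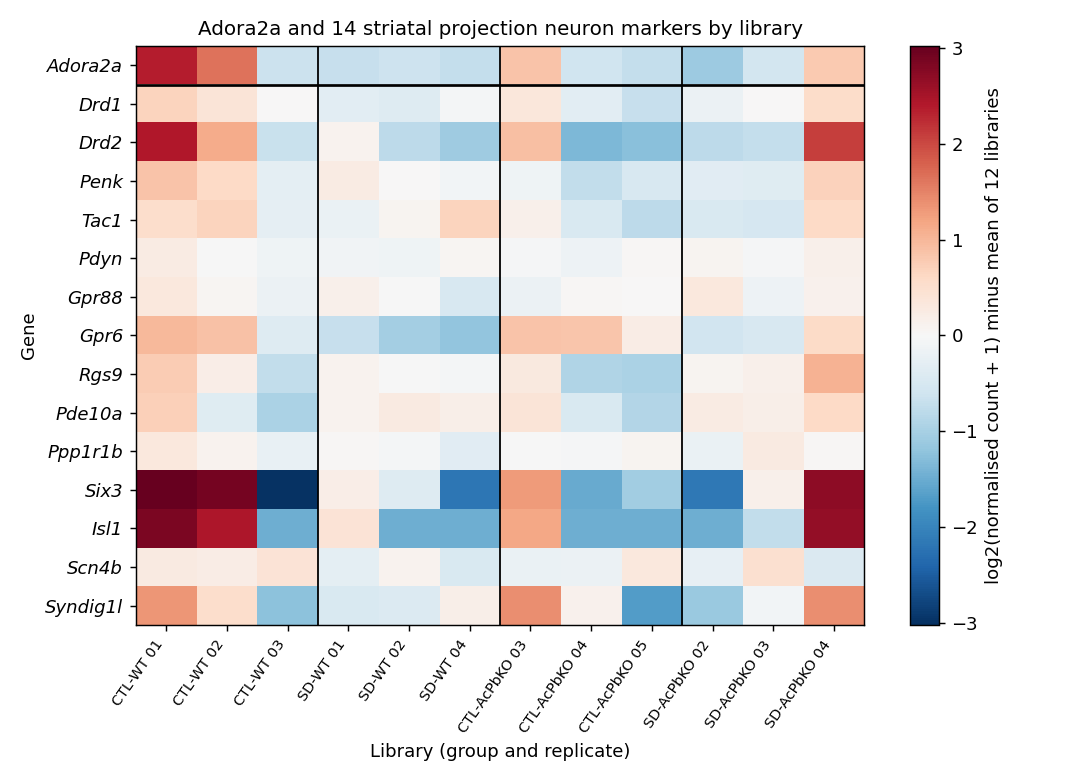
Colour gives log2(normalised count + 1) minus the gene's mean over 12 libraries for Adora2a (top row) and 14 striatal projection neuron markers (rows below) in each library (columns, by group and replicate; vertical lines separate the groups). The libraries CTL-WT 1, CTL-WT 2, CTL-AcPbKO 3 and SD-AcPbKO 4 are red for Adora2a, Drd2, Six3 and Isl1, and the 3 SD-WT libraries are blue for Adora2a.

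The genes most like Adora2a over the 12 libraries, among 12553 with a mean of at least 100 normalised counts, were Tbc1d16 (Pearson r 0.93, Spearman rho 0.69), Actn2 (0.89 and 0.80), Klhl13, Nt5dc2, Adcy5 (0.86 and 0.73), Hgs, Rasgrp2, Efnb3, Plin3 and Drd1 (0.84 and 0.71). Without CTL-WT 1 and 2, the libraries farthest from the Adora2a median, r for these 10 was between 0.64 and 0.89. When each value was first set against its group mean, so that group differences no longer counted, the 10 were Rgs9 (Pearson r 0.96, Spearman rho 0.95), Tbc1d16 (0.96 and 0.94), Adcy5 (0.94 and 0.92), Tuba1a, Actn2, Capns1, Gng7, Thbs4, Rwdd2a and Aspdh. Tbc1d16, Actn2 and Adcy5 were on both lists. Rgs9 and Drd1 are among the 14 striatal markers. Rgs9, a regulator of G protein signalling, had 2008, 1351 and 694 normalised counts in CTL-WT and 1259, 1170 and 1129 in SD-WT. It had 1444, 620 and 603 in CTL-AcPbKO and 1248, 1299.6 and 2413 in SD-AcPbKO. Its log2 fold change with SD was -0.06 in wild-type and 0.95 in AcPb-/- mice, neither called, against -1.81 and -0.13 for Adora2a. Libraries share depth and dissection across all genes, so these correlations describe 12 libraries and carry no test.

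Adk (chr14:21052574-21448569, plus strand) encodes the kinase that clears most adenosine in the adult brain. CTL-WT libraries held 2294, 2331 and 2318 normalised counts and SD-WT libraries 1806, 1757 and 1977. The controls were nearly equal, and every SD-WT library was below them. The log2 fold change was -0.33 (SE 0.06, -0.47 to -0.19, limma adjusted p = 0.00503), that is 0.797 of the control level. In AcPb-/- mice the controls had 2006, 1974 and 2248 and the SD libraries 1670.3, 1839 and 1708, again without overlap, and the log2 fold change was -0.25 (SE 0.07, -0.42 to -0.09, limma adjusted p = 0.0303). That call was lost without CTL-AcPbKO 4 (limma adjusted p = 0.05415), CTL-AcPbKO 5 (0.105), SD-AcPbKO 2 (0.105) or SD-AcPbKO 4 (0.0973). The log2 fold changes were -0.31 (limma adjusted p = 0.102) and -0.21 (limma adjusted p = 0.190) without the libraries with Xist reads. Of 6 astrocyte markers, 1 was higher and 2 were lower in wild-type mice (13.2% and 12.2% of all genes). In AcPb-/- mice 1 was higher and 1 lower (13.9% and 13.5% of all genes). Their summed level was 82289 to 90083 in CTL-WT, 86293 to 96224 in SD-WT, 76620.2 to 92968 in CTL-AcPbKO and 85509 to 86526 in SD-AcPbKO, and their part in the Adk values was not tested. In bulk tissue, fewer cells of a type and less RNA per cell cannot be told apart.

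Ada (chr2:163726584-163750239, minus strand), the deaminase, was close to the lower limit of measurement, with 8 to 59 reads per library. Its normalised counts were 29.1, 18.3 and 24.6 in CTL-WT and 22.2, 30.7 and 32.6 in SD-WT, which overlapped, with a log2 fold change of 0.24 (SE 0.27, -0.34 to 0.83, limma adjusted p = 0.5545). In CTL-AcPbKO they were 26.1, 14.1 and 21.2 and in SD-AcPbKO 31.0, 37.95 and 41.9. All SD-AcPbKO libraries were above all CTL-AcPbKO libraries, but the log2 fold change of 0.85 (SE 0.29, 0.19 to 1.51) missed the threshold (limma adjusted p = 0.058). It passed when genes with a mean under 10 were dropped (limma adjusted p = 0.0428), with a pseudocount of 10 (0.0386), when all groups shared a fit (0.0325), after thinning (0.0326) and without CTL-AcPbKO 3 (0.0336). Without the libraries with Xist reads the log2 fold changes were -0.05 in wild-type mice (limma adjusted p = 0.957) and 0.47 in AcPb-/- mice (0.336).

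Of the ectonucleotidases, Entpd2 (chr2:25395874-25401321, plus strand), the ecto-ATPase, fell in both genotypes. CTL-WT had 381, 486 and 403 normalised counts and SD-WT 344, 290.5 and 308. Every SD-WT library was below every control, by a narrow margin between SD-WT 1 and CTL-WT 1. The log2 fold change was -0.43 (SE 0.12, -0.69 to -0.16, limma adjusted p = 0.0243). CTL-AcPbKO had 515, 486 and 488 and SD-AcPbKO 273, 335 and 285, a wider gap, with a log2 fold change of -0.74 (SE 0.11, -0.98 to -0.50, limma adjusted p = 0.00191). The wild-type call was lost without CTL-WT 2 (limma adjusted p = 0.110) or SD-WT 2 (0.0986) and with Xist status as a term (0.0746), and without the libraries with Xist reads the log2 fold change was -0.28 (0.31); in AcPb-/- mice it was -0.80 (0.0358) without them. Annotated Npdc1 transcripts run into Entpd2 on the same strand, and 23.0% of its 100-base stretches also lie in Npdc1 transcripts, so its counts are uncertain.

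Entpd1 (chr19:40612366-40741602, plus strand), the ATP and ADP hydrolase of microglia and endothelium, had 840.5, 709.9 and 700.7 normalised counts in CTL-WT and 779, 775 and 809 in SD-WT, which overlapped (log2 fold change 0.07, -0.12 to 0.27, limma adjusted p = 0.581). CTL-AcPbKO had 742, 733 and 736, and SD-AcPbKO 637, 661 and 698. The SD-AcPbKO libraries were all below their controls, yet the log2 fold change of -0.15 (-0.31 to 0.02) did not pass (limma adjusted p = 0.169). Without the libraries with Xist reads the log2 fold changes were -0.09 in wild-type mice (limma adjusted p = 0.493) and -0.16 in AcPb-/- mice (0.231). Of 5 microglial markers, 2 fell in AcPb-/- mice (Cx3cr1 and Csf1r), against 13.5% of all genes lower. Tmem119, C1qa and Siglech were not called. The summed level of the 5 was 10364 to 11435 in CTL-AcPbKO, 7735 to 9179 in SD-AcPbKO, 10548 to 11723 in CTL-WT and 9821 to 10729 in SD-WT. In wild-type mice 0 of 5 were called by limma (1 at an unadjusted p under 0.05), against 25.4% of all genes. The part of these markers in the Entpd1 values was not tested.

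Nt5e (chr9:88327197-88372092, plus strand), the 5'-nucleotidase that makes extracellular adenosine from AMP, had 286, 282 and 280.5 normalised counts in CTL-WT and 228.5, 217 and 287 in SD-WT. SD-WT 1 and 2 were below the controls and SD-WT 4 was above them. The log2 fold change was -0.22 (-0.50 to 0.06, limma adjusted p = 0.227), and without SD-WT 4 it was -0.34 (limma adjusted p = 0.03455). In AcPb-/- mice, with 241, 286 and 338 in controls and 240.0, 315 and 262.5 after SD, the groups overlapped throughout (log2 fold change -0.08, -0.43 to 0.28, limma adjusted p = 0.741). For Nt5e, leaving out the libraries with Xist reads gave log2 fold changes of -0.24 in wild-type mice (limma adjusted p = 0.532) and 0.16 in AcPb-/- mice (0.651).

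The transporters, which let adenosine equilibrate across the membrane, were not called in either genotype. Slc29a1 (chr17:45585200-45599606, minus strand) had 813, 801 and 676 normalised counts in CTL-WT and 654, 659.8 and 610.2 in SD-WT. The groups did not overlap, and the log2 fold change was -0.25 (-0.45 to -0.05, limma adjusted p = 0.07095). It passed without CTL-WT 3 (limma adjusted p = 0.0266) and with Xist status as a term (0.0287). In CTL-AcPbKO it had 879, 666 and 618 and in SD-AcPbKO 671, 864 and 761, with overlap and a log2 fold change of 0.10 (-0.23 to 0.42, limma adjusted p = 0.671). It was -0.34 in wild-type mice (limma adjusted p = 0.198) and -0.21 in AcPb-/- mice (0.377) when the libraries with Xist reads were left out. Exons of Slc29a1 overlap Gm17080 on the other strand. Of 5 endothelial markers, 3 were higher and 1 was lower with SD in each genotype. Of all genes, 13.2% were higher and 12.2% lower in wild-type mice, and 13.9% and 13.5% in AcPb-/- mice. The part of the endothelial markers in the Slc29a1 values was not tested. Slc29a2 (chr19:5023860-5031972, plus strand) ranged from 640.4 to 689 in CTL-WT and from 714 to 751 in SD-WT, a gap without overlap, and from 623 to 694 in CTL-AcPbKO and 689 to 745 in SD-AcPbKO, where the groups overlapped. Its log2 fold changes were 0.12 (-0.04 to 0.29, limma adjusted p = 0.265) and 0.11 (-0.07 to 0.29, limma adjusted p = 0.347), or 0.10 (0.46) and 0.03 (0.8045) without the libraries with Xist reads.

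**Figure D4:**
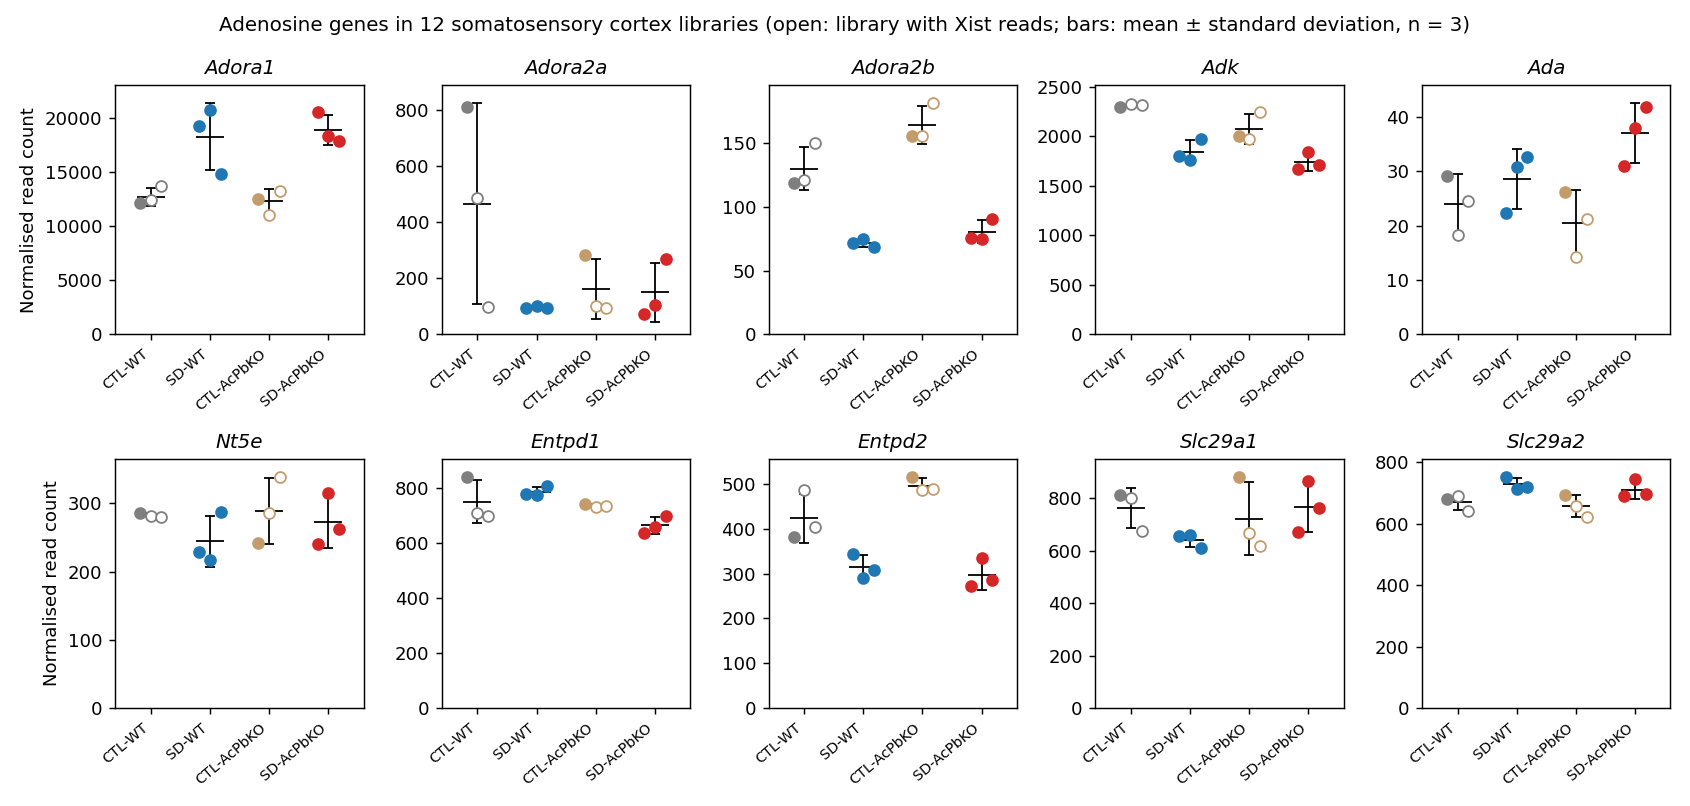
Normalised read counts (vertical axes, from 0) of the 10 genes in each library of the 4 groups (horizontal axes); open points are libraries with Xist reads, and bars give mean ± standard deviation (n = 3). SD libraries lie above all controls for Adora1 and below them for Adora2b, Adk and Entpd2 in both genotypes, while 8 of 12 Adora2a points lie between 72.8 and 107.

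The effect of genotype was compared within undisturbed and within sleep deprived mice. In undisturbed mice 0 of the 10 genes differed between AcPb-/- and wild-type mice by limma, against 0.0197% of 20273 genes, and DESeq2 and edgeR also called 0 of the 10. At an unadjusted p under 0.05, 1 of 10 was lower in AcPb-/- mice (Adk, log2 fold change -0.16, -0.30 to -0.02, limma adjusted p = 0.533, unadjusted 0.0306), against 8.42% of all genes. The groups did not overlap for 2 of 10, Adk, and Adora2b with a log2 fold change of 0.34 (-0.00 to 0.68, limma adjusted p = 0.598, unadjusted 0.0525), against 14.3% of all genes. The Adora2a difference was -1.28 with a wide interval (-2.81 to 0.26, limma adjusted p = 0.649). The log2 differences without the libraries with Xist reads were -0.19 for Adk, 0.38 for Adora2b and -1.51 for Adora2a (limma adjusted p = 0.745, 0.732 and 0.713).

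After SD, limma, DESeq2 and edgeR again each called 0 of the 10 between genotypes, with limma calling 0.0145% of 20621 genes. At an unadjusted p under 0.05 there were 2 of 10, against 6.16% of all genes. Entpd1 was the lower in SD-AcPbKO (log2 fold change -0.24, -0.41 to -0.08, limma adjusted p = 0.619, unadjusted 0.00904), and Slc29a1 was the higher (0.25, 0.02 to 0.47, limma adjusted p = 0.766, unadjusted 0.0338). These were also the 2 of 10 without overlap, against 11.3% of all genes.

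Whether SD acted differently in AcPb-/- mice was tested as the difference of the SD effects in a fit of all 12 libraries. No gene of the 20978 passed the threshold in limma (0%), and among the 10 genes 0 were under an unadjusted p of 0.05, against 4.00% of all genes. edgeR called 0 genes in all and DESeq2 1, which was not among the 10. The difference was 0.12 for Adora1 (-0.23 to 0.46), -0.17 for Adora2b (-0.62 to 0.28) and 0.07 for Adk (-0.13 to 0.27) on the log2 scale. The smallest unadjusted p-values in limma were 0.0582 for Entpd1 (-0.22, -0.45 to 0.01), 0.0688 for Entpd2 (-0.32, -0.66 to 0.03), 0.0821 for Slc29a1 (0.34, -0.05 to 0.74) and 0.0997 for Adora2a (1.68, -0.37 to 3.72). With Xist status as a term, the unadjusted p in limma was 0.0376 for Adora2a, 0.0393 for Entpd1 and 0.0376 for Slc29a1. In that fit 1021 of 20978 genes were under 0.05 and 0 were called. Without the libraries with Xist reads the differences were -0.06 for Entpd1, -0.51 for Entpd2, 0.13 for Slc29a1 and 1.91 for Adora2a.

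The other genes of purine handling were examined by list, 70 of 73 written symbols being present; the missing 3 are alternative symbols of genes already counted. With SD, 10 were higher and 12 lower in wild-type mice (13.2% and 12.2% of all genes), and 9 were higher and 10 lower in AcPb-/- mice (13.9% and 13.5% of all genes). Their median log2 fold changes were -0.06 and -0.07. In the genotype comparisons and in the difference of the SD effects limma called 0 of 70, with 4, 7 and 5 at an unadjusted p under 0.05, against 8.42%, 6.16% and 4.00% of all genes. In both genotypes 13 of the 70 were called, 6 higher in both and 7 lower in both, against 19.3% of the 20013 genes tested in both; of the 10 adenosine genes it was 4. When the libraries with Xist reads were left out, 3 of the 70 were higher and 1 was lower in wild-type mice, and 6 were higher and 3 lower in AcPb-/- mice. All 13 kept their sign in that fit, and 2 of them passed in wild-type mice (Adal and Xdh) and 6 in AcPb-/- mice (Adal, Xdh, Ampd3, Entpd5, Ak1 and Ak3).

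Among the 9 genes of deamination and purine breakdown, Xdh, which oxidises hypoxanthine and xanthine to urate, rose most: it had 382, 418 and 438 normalised counts in CTL-WT and 997, 880.5 and 820.5 in SD-WT, and 241, 369 and 482.5 in CTL-AcPbKO and 937, 715 and 765.5 in SD-AcPbKO. SD libraries were above all controls, and the log2 fold changes were 1.12 (SE 0.10, limma adjusted p = 0.000174) and 1.19 (SE 0.225, limma adjusted p = 0.00595). Adal, an adenosine deaminase-like enzyme, rose by 0.49 and 0.58 (limma adjusted p = 0.00326 and 0.00107), and the AMP deaminase gene Ampd3 by 0.21 and 0.29. In the same list Gda, guanine deaminase, had log2 fold changes of -0.55 and -0.48 and Pnp, purine nucleoside phosphorylase, of -0.36 and -0.45, so both fell.

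Of 10 salvage genes, Aprt, which returns adenine to AMP, fell (-0.54 and -0.67), Ak1, the cytosolic adenylate kinase, fell (-0.27 and -0.31), and Ak3, a mitochondrial adenylate kinase, rose (0.24 and 0.38). Of 7 intracellular nucleotidases, Nt5c3b rose (0.29 and 0.31) and mitochondrial Nt5m fell (-0.34 and -0.49), and of 11 other ectonucleotidases Entpd5 rose by 0.32 in each genotype. Of 8 genes of receptor signalling, Gnai1, an inhibitory G protein subunit, fell (-0.56 and -0.52) and the adenylyl cyclase gene Adcy8 fell (-0.34 and -0.33). Of 8 other purine receptors 3 were higher in wild-type mice (P2rx4, P2rx7 and P2ry14) and 0 were called in AcPb-/- mice by limma, with 3 at an unadjusted p under 0.05. With Xist status as a term, limma called P2rx7 and P2ry14 in wild-type mice and Adora3 and P2ry13 in AcPb-/- mice. Adora3, a further adenosine receptor gene, had only 8.52 to 20.9 normalised counts per library. None of the 4 ATP release genes and 5 other nucleoside transporters was called in wild-type mice (1 of each list at an unadjusted p under 0.05), and 1 of each was lower in AcPb-/- mice (Slc17a9 and Slc28a2). None of 8 genes of purine synthesis was called in wild-type mice by limma (4 at an unadjusted p under 0.05) and 1, Gart, was lower in AcPb-/- mice. For these lists, the shares of all genes were 13.2% higher and 12.2% lower in wild-type mice, and 13.9% and 13.5% in AcPb-/- mice.

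**Figure D5:**
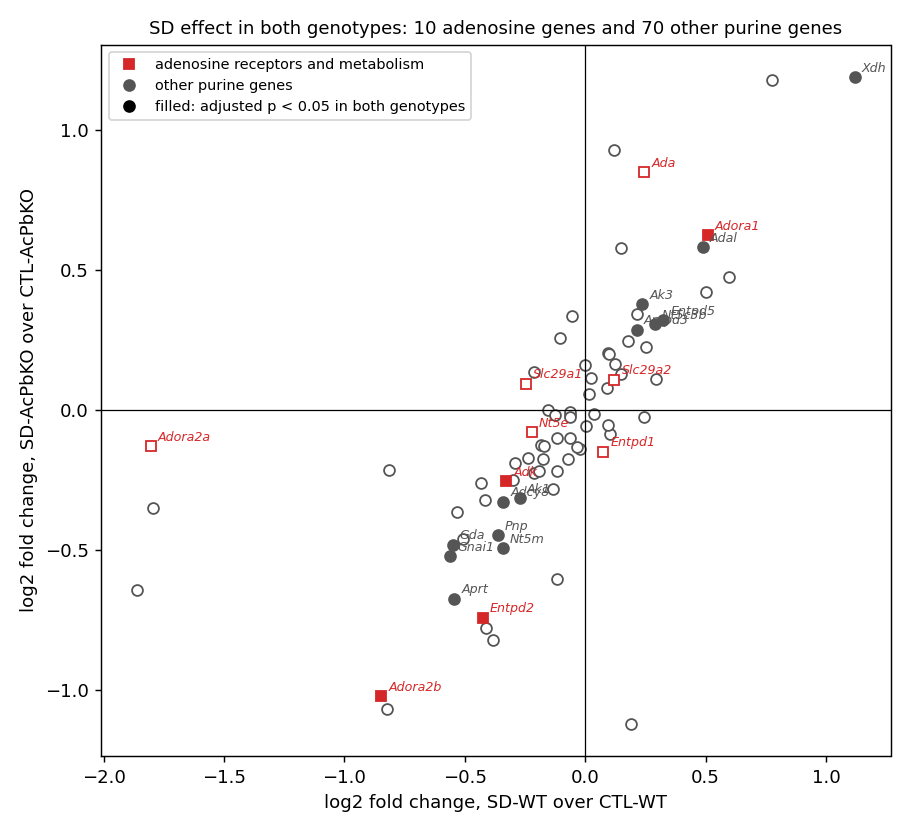
Log2 fold change of SD in wild-type mice (horizontal axis) against that in AcPb-/- mice (vertical axis) for the 10 adenosine genes (red squares) and 70 other purine genes (grey circles); filled symbols passed an adjusted p-value of 0.05 in both genotypes. Xdh lies at 1.12 and 1.19, Adora2b at -0.85 and -1.02, and Adora2a at -1.81 and -0.13.

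The start regions of the 4 genes called in both genotypes are shown because these genes moved with SD in both. RefSeq start windows (250 bases before to 50 after the start, GRCm38.p6) were found for 9 of the 10 genes, 19 windows in all, and the first window of each of the 4 genes is printed 5' to 3' on the strand of the gene. Capitals mark every match, on either strand, to the CRE (TGACGTCA), its core (TGACG), the E-box (CACGTG), the GC box (GGGCGG) and the AP-1 site (TGANTCA); a CRE would also count as a match to its core. The windows are chr1:134235408-134235707 (minus) for Adora1, chr11:62248734-62249033 (plus) for Adora2b, chr14:21052324-21052623 (plus) for Adk and chr2:25395624-25395923 (plus) for Entpd2.
Adora1: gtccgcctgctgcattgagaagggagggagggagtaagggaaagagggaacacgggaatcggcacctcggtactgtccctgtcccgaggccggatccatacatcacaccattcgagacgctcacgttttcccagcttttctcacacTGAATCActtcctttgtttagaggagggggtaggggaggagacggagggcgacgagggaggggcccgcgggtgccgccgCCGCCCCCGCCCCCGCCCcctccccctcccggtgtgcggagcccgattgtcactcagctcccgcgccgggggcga
Adora2b: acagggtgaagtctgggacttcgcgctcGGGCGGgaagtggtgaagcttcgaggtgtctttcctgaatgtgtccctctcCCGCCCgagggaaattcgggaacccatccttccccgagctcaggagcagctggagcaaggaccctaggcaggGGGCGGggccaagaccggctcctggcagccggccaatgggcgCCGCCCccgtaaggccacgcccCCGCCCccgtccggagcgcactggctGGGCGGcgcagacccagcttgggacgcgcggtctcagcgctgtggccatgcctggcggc
Adk: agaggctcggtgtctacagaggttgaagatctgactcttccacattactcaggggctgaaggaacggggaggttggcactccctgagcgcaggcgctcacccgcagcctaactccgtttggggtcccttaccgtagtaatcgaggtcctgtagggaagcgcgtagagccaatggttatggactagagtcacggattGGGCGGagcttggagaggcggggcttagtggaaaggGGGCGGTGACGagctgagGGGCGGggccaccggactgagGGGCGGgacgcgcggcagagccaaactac
Entpd2: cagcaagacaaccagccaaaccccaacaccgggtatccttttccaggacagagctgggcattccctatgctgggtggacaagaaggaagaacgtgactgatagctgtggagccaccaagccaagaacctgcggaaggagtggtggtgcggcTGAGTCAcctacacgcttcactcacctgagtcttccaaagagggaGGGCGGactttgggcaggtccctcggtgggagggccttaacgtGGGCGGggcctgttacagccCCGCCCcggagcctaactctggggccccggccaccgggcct

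Adora1, the gene that rose, had 3 GC boxes in an unbroken run and 1 AP-1 site, and Entpd2, which fell, had the same kinds and numbers of matches, 3 and 1. Adora2b had 6 GC boxes and Adk 4, of which 1 adjoined a CRE core. Of 32851 start windows of all genes, 35.7% held a GC box, 7.8% an AP-1 site, 20.8% a CRE core, 7.2% an E-box and 1.8% a CRE. The 4 windows held at least 61.7% G and C, against a median of 52.7% over all windows. A second window of Adora1 held none of the 5 motifs and a second window of Adk held 4 GC boxes, so the matches depend on which start is used. Matches are letters only, and no binding was measured.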

How the data were processed

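Libraries were made by the authors with a stranded mRNA kit and sequenced as paired-end 100 bp reads. Per the labels, HISAT2 2.2.1, featureCounts and DESeq2 1.31.16 were used on build mm10, whereas the methods of the study name HTSeq as the counter. The deposited tables hold normalised counts, a depth-scaled signal (gene counts divided by DESeq2 size factors), and the authors' own fold changes and p-values, which were not used. Whole reads, within 0.01 read, were recovered for 100.0% of 732630 values in 5 tables, and recovered reads did not differ between tables. Of 16 labelled samples, 12 have columns; the other 4 were not analysed here. Reads were rescaled by the median of ratios over all 12 libraries.

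Each comparison was a limma 3.58.1 fit with a variance trend on log2(normalised count + 1), run on the 2 groups compared (4 residual degrees of freedom) over all genes with a read. The difference of SD effects was fitted over 4 groups (8 residual degrees of freedom). Adjusted p-values are Benjamini-Hochberg over all genes tested, called under 0.05. The fits were tested on simulated data. Alternatives were edgeR 4.0.16 and DESeq2 1.42.0 on the recovered reads, other pseudocounts (0.1 and 10), a mean of at least 10, TMM, the deposited scale, a replicate block, Xist status, leaving out single libraries and, chosen after seeing the data, thinning and leaving out libraries with Six3. Libraries with Six3 are those with at least 10 normalised counts of it. Counting error limits Ada most.

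Named genes are the 10 genes, purine genes called with SD in both genotypes or between genotypes, label checks, and the 10 genes most like Adora2a; other genes named for small counts were chosen after their values were seen. The genes and lists were chosen with earlier results of these data known. A further microglial marker is not reported here. Symbols were matched to GENCODE M21 (GRCm38) for 23384 of 24421 genes.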

Additional observations from a re-analysis of the deposited data

How the results depend on the processing

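Of the 10 genes, limma called 5 with SD in wild-type mice and 4 in AcPb-/- mice; leaving out single libraries gave 3 to 6 and 3 to 5. In wild-type mice the count fell to 3 without CTL-WT 2 or SD-WT 2 and at an adjusted p under 0.01, and to 0 without the libraries with Xist reads or with Six3. In AcPb-/- mice it was 2 without the libraries with Xist reads. Genotype comparisons and the difference of SD effects gave 0 of 10 under all alternatives run. The cause was not tested, but leaving out libraries leaves 1 control in some groups. Without the libraries with Six3, all controls left are libraries with Xist reads and no SD library is.

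Replicate numbers were shared by groups for few libraries, and the correlation of same-numbered deviations was 0.102 and -0.075 for SD in wild-type mice, -0.141 and -0.018 in AcPb-/- mice, -0.427 between undisturbed genotypes and 0.216 and 0.231 after SD, so the numbers were not taken as pairing. With the replicate block, 0 of the 10 genes and 0 genes in all were called in each of the 3 comparisons where it could be fitted and in the difference of SD effects. It could not be fitted between CTL-AcPbKO and CTL-WT, which share 1 number. Nt5e in AcPb-/- mice was 0.13 under the block. In a comparison of 6 libraries the block leaves few residual degrees of freedom. With it, 6894 of 20417 genes in wild-type mice had an unadjusted limma p under 0.05, against 7611 without it. In AcPb-/- mice these were 4709 of 20574 and 7993. Log2 fold changes with SD under the block were 0.71 and 0.62 for Adora1 and -0.71 and -0.91 for Adora2b. They were -0.38 and -0.17 for Adk and -0.44 and -0.69 for Entpd2.

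Over all genes, the calls for SD in wild-type and AcPb-/- mice were 2340 and 2657 at an adjusted p under 0.01, 680 and 2080 without the libraries with Xist reads, 89 and 3515 without those with Six3, and at the lowest 2705 and 3391 without a single library. Between genotypes DESeq2 called 93 genes in undisturbed mice and 97 after SD, edgeR 8 and 9, and limma 4 and 3; limma called up to 169 without CTL-AcPbKO 3.

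Signs turned only for differences that limma did not call. With Xist status as a term, SD in wild-type mice gave -0.089 for Ada and -0.015 for Entpd1, and in AcPb-/- mice 0.035 for Nt5e and -0.10 for Slc29a1. Without the libraries with Xist reads these were -0.047, -0.094, 0.16 and -0.21, and between undisturbed genotypes Adora1 was 0.045, Nt5e -0.24, Slc29a1 0.11 and Slc29a2 0.033. Without the libraries with Six3, Entpd1 was 0.067 between undisturbed genotypes, and Adora2a, which those libraries hold at its highest, was -0.14 between genotypes after SD and -0.12 for the difference of SD effects. Leaving out single libraries gave, with SD in AcPb-/- mice, -0.67 to 0.38 for Adora2a, -0.20 to 0.043 for Nt5e and -0.0069 to 0.25 for Slc29a1. Between undisturbed genotypes it gave -0.11 to 0.020 for Adora1, -0.11 to 0.14 for Nt5e, -0.068 to 0.063 for Entpd1, -0.25 to 0.0080 for Slc29a1 and -0.063 to 0.015 for Slc29a2. After SD it gave -0.082 to 0.16 for Adora1 and -0.14 to 0.81 for Adora2a, and for the difference of SD effects -0.029 to 0.21 for Adora1 and -0.051 to 0.027 for Slc29a2.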
